A study of Mus musculus with 6 samples.

Results

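The enzymes that break down uridine and the pyrimidine bases were followed in liver RNA of mice on 2 diets. Members were 6 genes, namely Cda, Upp1, Upp2, Dpyd, Dpys and Upb1, selected on their known roles and on their signals on the ketogenic against the chow arrays in earlier work with these data. Every probe set annotated with exactly 1 of these symbols was taken, which gave 12 of the 45101 probe sets on the array and 6 of 18194 gene symbols. Upp2, Dpyd and Dpys had 3 probe sets each, and Upp1, Upb1 and Cda had 1 each. Because the contrast of the diets had a part in the choice, the differences of the 6 genes between diets are given as a description, with no test. Their calls in a fit over all genes are listed later, and nothing is read from them.

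The study compared C57BL/6 mice given a ketogenic diet (F3666), in which fat supplies nearly all energy and carbohydrate almost none, with C57BL/6 mice given chow (Labdiet 5008). Both groups were 8 weeks old at the start, stayed on their diet for 6 weeks and had free access to food until the livers were taken in the morning. The 2 diets differ in many nutrients besides fat. Each diet had 3 one-colour Affymetrix arrays of total liver RNA. The RNA came from 2 to 3 animals in each group, and whether an array held 1 mouse or a pool is not given, so the spread between arrays may be partly technical.

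Pyrimidine breakdown runs in one direction through a short chain of enzymes. Cytidine deaminase, from Cda, turns cytidine into uridine, and the uridine phosphorylases Upp1 and Upp2 split uridine into uracil and ribose 1-phosphate. Dihydropyrimidine dehydrogenase, from Dpyd, reduces uracil and thymine and is the rate-limiting step of base breakdown. Dihydropyrimidinase, from Dpys, opens the ring, and beta-ureidopropionase, from Upb1, releases beta-alanine or beta-aminoisobutyrate with ammonia and carbon dioxide. Liver is a main site of this chain and helps to set the level of uridine in blood.

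On the ketogenic diet the signals of Upp2 and Dpyd, which act on uridine and uracil, were lower, that of Cda was higher, and those of Dpys and Upb1, the later steps, overlapped between the diets. The mean signal of Upp2 was 15.7% of that on chow and that of Dpyd 46.0%, while that of Cda was 180% of it. These percentages use the brightest probe set of each gene. Signals are the deposited linear values and can be compared between arrays for 1 probe set, but not between genes. The background of 10.8 was taken from 27 control probe sets for bacterial genes, as their 95th percentile averaged over arrays.

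**Figure D1:**
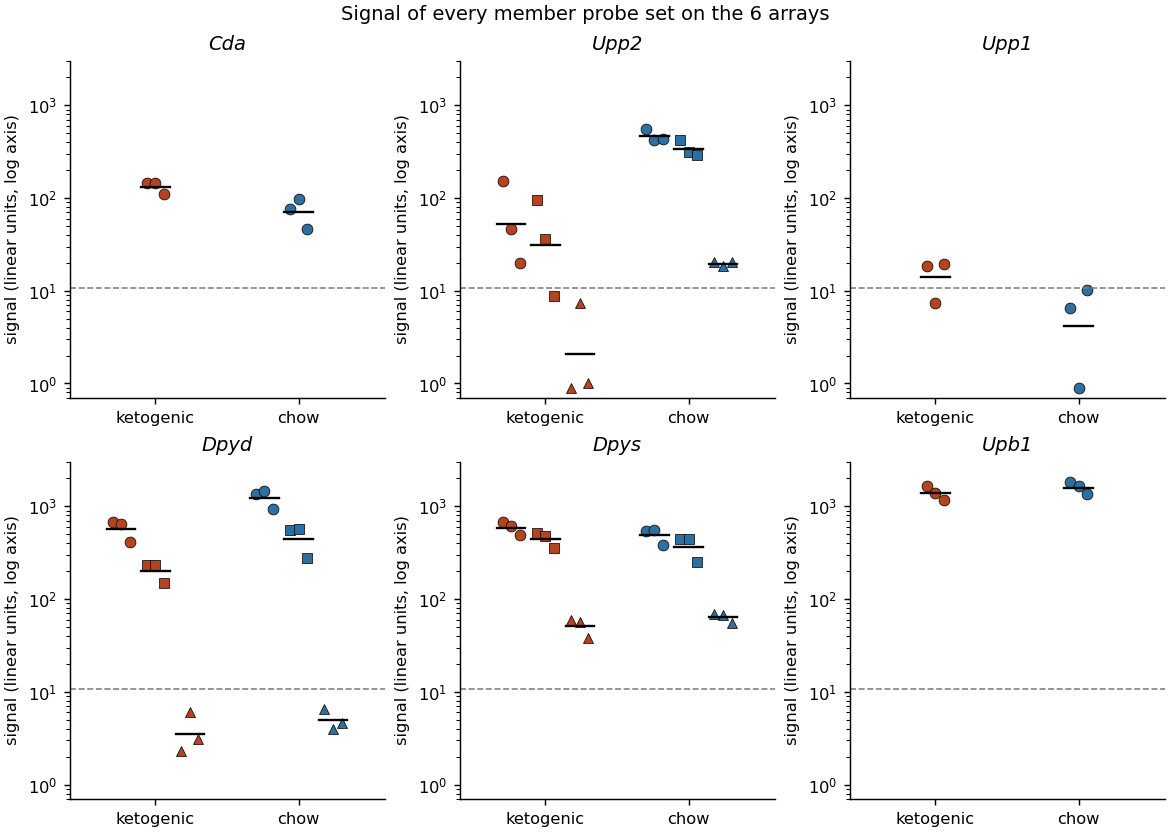
Signal (linear units on a log axis) of all 12 probe sets of the 6 genes on the 3 ketogenic arrays (red) and 3 chow arrays (blue). Circles, squares and triangles are the probe sets of a gene in order of falling brightness, black bars are geometric means with signals raised to the floor of 1.1, and the dashed line is the background of 10.8. All 3 probe sets of Upp2 and the brighter 2 of Dpyd lie lower on every ketogenic array than on any chow array.

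The sequences before the start sites of the genes whose diets did not overlap are shown to give the DNA around the starts of Upp2, Dpyd and Cda. They come from a table of RefSeq promoters, build GRCm38.p6, in which 5 of the 6 members matched, all but Dpys, and each window runs from 250 bases before a start site to 50 bases from it. Upp2 had 2 annotated start sites, 188 kb apart on chromosome 2, both on the plus strand (chr2:58567084-58567383 and chr2:58754934-58755233). Dpyd had 1 on the plus strand (chr3:118561930-118562229) and Cda 1 on the minus strand (chr4:138367906-138368205). Capitals mark the matches described after the sequences.
Upp2 start site 1: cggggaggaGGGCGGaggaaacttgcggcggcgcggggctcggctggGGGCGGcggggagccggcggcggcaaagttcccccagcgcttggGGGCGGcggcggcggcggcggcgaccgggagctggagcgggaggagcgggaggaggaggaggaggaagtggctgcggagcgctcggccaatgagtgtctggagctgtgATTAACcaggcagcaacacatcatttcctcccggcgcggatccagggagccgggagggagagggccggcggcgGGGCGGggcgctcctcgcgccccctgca
Upp2 start site 2: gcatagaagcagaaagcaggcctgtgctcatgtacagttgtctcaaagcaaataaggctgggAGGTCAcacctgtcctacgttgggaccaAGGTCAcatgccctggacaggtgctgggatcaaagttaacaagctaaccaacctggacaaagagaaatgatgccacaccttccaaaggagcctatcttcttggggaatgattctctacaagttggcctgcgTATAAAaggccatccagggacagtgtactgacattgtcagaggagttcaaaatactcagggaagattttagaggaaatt
Dpyd: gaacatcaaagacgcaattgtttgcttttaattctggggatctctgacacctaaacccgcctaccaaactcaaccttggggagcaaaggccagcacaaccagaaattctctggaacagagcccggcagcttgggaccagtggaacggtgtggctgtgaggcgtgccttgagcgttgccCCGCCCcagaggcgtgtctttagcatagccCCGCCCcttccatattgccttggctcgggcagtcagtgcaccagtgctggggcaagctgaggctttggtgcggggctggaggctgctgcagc
Cda: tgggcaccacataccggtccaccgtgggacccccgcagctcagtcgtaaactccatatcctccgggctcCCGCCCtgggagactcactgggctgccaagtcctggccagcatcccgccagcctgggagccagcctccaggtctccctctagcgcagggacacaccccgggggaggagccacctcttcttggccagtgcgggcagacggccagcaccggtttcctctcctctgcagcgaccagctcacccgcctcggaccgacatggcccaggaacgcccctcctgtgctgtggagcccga

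Searched on both strands were TATAAA, the core of the TATA box, GGGCGG, the GC box, AGGTCA, the half-site bound by many nuclear receptors, and GTTAAT, one arm of the site of the hepatocyte factor HNF1. The 2 windows of Upp2 differed in make-up. The first was 75.3% G and C, against a median of 52.7% over all promoters, with 4 GC boxes and 1 GTTAAT on the opposite strand. The second was 47.0% G and C and held TATAAA at position -29 and AGGTCA at positions -188 and -160, counted from the start site. The Dpyd window held 2 GC boxes and the Cda window 1, all on the opposite strand and read as CCGCCC in the printed strand. Of 32851 promoter windows of 300 bases, 13.6% held TATAAA, 35.7% GGGCGG, 16.3% AGGTCA and 7.1% GTTAAT. No match overlapped another in the 4 windows printed. A match is a run of letters and not a shown binding site, and the arrays do not tell which start site of Upp2 was used.

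Upp2 is the uridine phosphorylase that mouse liver is known to express most strongly. Its brightest probe set read 153.8, 46.9 and 19.9 on ketogenic arrays 1, 2 and 3, against 552.9, 420.1 and 428.6 on chow arrays 1, 2 and 3. All 3 ketogenic arrays lay under all 3 chow arrays, and the ketogenic arrays spread widely while the chow arrays lay close together. The signal averaged 73.5 ± 70.8 on ketogenic and 467.2 ± 74.3 on chow arrays (SD, n = 3 each), a 6.35-fold lower mean. On the log2 scale the difference, ketogenic minus chow, was -3.15 ± 0.86 (SE).

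The second probe set of Upp2 gave the same order of arrays within the ketogenic group, with 95.7, 36.1 and 8.8 on ketogenic and 424.6, 313.2 and 294.3 on chow arrays. Its mean was 7.34-fold lower on the ketogenic diet, and its log2 difference was -3.44 ± 1.01 (SE). Ketogenic array 3 lay under the background of 10.8 here, though above the 7.29 of that array alone. Against the background of 10.8 the second probe set gives an upper limit for this array and not a level. The third, dim probe set read 0.9, 7.3 and 1.0 on ketogenic arrays and 20.5, 18.4 and 20.2 on chow arrays. It was under the background on every ketogenic array, which makes its signal at least 1.83-fold lower there, and the filter on low signal left it out. The brightest probe set is of a kind that can bind several related transcripts, while the second is not, and both showed the diets apart.

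Upp1 encodes the uridine phosphorylase that many other tissues express, and its single probe set was dim on all 6 arrays. It read 18.7, 7.4 and 19.6 on ketogenic arrays and 6.5, 0.9 and 10.2 on chow arrays. All 3 chow arrays and ketogenic array 2 were under the background, the diets overlapped, and the filter on low signal left Upp1 out of the fit. Ketogenic arrays 1 and 3 were above the background. The log2 difference of 1.74 ± 1.08 (SE) at the floor of 1.1 became 0.55 with the floor at the background and 0.51 with a pseudocount of 16, so its size follows from the treatment of dim signals. It was 0.78 without chow array 2, which read 0.9, and between 1.49 and 2.38 when another array was left out.

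Dpyd was lower on the ketogenic diet on both of its bright probe sets. The brightest read 680.9, 645.6 and 411.5 on ketogenic arrays, against 1371.1, 1455.0 and 948.6 on chow arrays. The diets did not overlap, and array 3 was the lowest of its group in both diets. The signal averaged 579.3 ± 146 on ketogenic and 1258 ± 271 on chow arrays (SD, n = 3 each), a 2.17-fold lower mean with a log2 difference of -1.13 ± 0.30 (SE).

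The second probe set of Dpyd read 230.6, 231.4 and 148.0 on ketogenic and 550.1, 572.3 and 279.7 on chow arrays, with a 2.30-fold lower mean and a log2 difference of -1.16 ± 0.40 (SE). Chow array 3 was closer to the ketogenic arrays than to the other chow arrays on this probe set, so the gap between the diets was narrow. The third probe set of Dpyd was under the background on all 6 arrays and gives no measure of the gene.

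Cda, which feeds cytidine into the uridine pool, was higher on the ketogenic diet. It read 144.0, 143.8 and 110.3 on ketogenic arrays and 76.8, 98.5 and 46.3 on chow arrays. Every ketogenic array lay above every chow array, with a small gap between ketogenic array 3 and chow array 2. The signal averaged 132.7 ± 19.4 on ketogenic and 73.9 ± 26.2 on chow arrays (SD, n = 3 each), 1.80-fold higher, with a log2 difference of 0.90 ± 0.35 (SE). Cda rests on 1 probe set.

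Dpys, the ring-opening step after Dpyd, overlapped between the diets on all 3 of its probe sets. The brightest read 674.3, 609.2 and 487.1 on ketogenic arrays and 537.1, 554.7 and 388.3 on chow arrays, a log2 difference of 0.26 ± 0.21 (SE). The second read 518.3, 479.0 and 354.1 on ketogenic and 440.9, 442.0 and 253.3 on chow arrays, a log2 difference of 0.28 ± 0.32 (SE). The third was dimmer, at 60.2, 57.2 and 38.4 on ketogenic and 69.8, 68.0 and 55.4 on chow arrays, and its log2 difference had the other sign, -0.33 ± 0.23 (SE). The probe sets of Dpys therefore gave no common direction.

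Upb1, the last step, was bright on every array and overlapped between the diets. It read 1669.8, 1388.8 and 1172.4 on ketogenic arrays and 1812.0, 1643.8 and 1361.7 on chow arrays. The signal averaged 1410 ± 249.4 on ketogenic and 1606 ± 228 on chow arrays (SD, n = 3 each), with a log2 difference of -0.19 ± 0.19 (SE). Ketogenic array 1 was brighter than chow arrays 2 and 3.

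**Figure D2:**
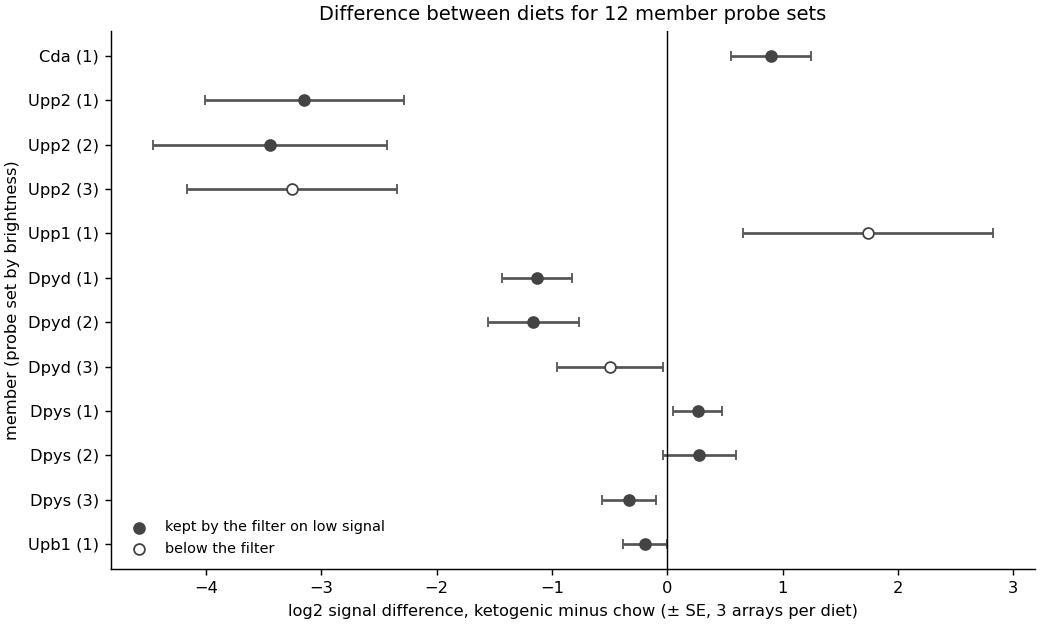
Log2 signal difference, ketogenic minus chow, of the 12 probe sets with its SE (3 arrays per diet), ordered from cytidine to beta-alanine and numbered by brightness within a gene. Filled points passed the filter on low signal and open points did not. The 3 probe sets of Upp2 lie between -3.44 and -3.15 and the brighter 2 of Dpyd at -1.16 and -1.13, while Cda lies at 0.90 and the probe sets of Dpys and Upb1 between -0.33 and 0.28.

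The arrays of the ketogenic group were ordered alike across the chain. All 5 members in the fit, so without Upp1, had their highest ketogenic signal on array 1 and their lowest on array 3, and 4 of the 5 had their lowest chow signal on array 3. Array 3 was the dimmest of its group in both diets, with a 2% trimmed mean signal of 45.8 against 54.9 and 61.0 on the other ketogenic arrays and 39.9 against 53.5 and 46.3 on the other chow arrays. With arrays brought to a common median, Upp2 still read 148, 39.1 and 22.1 on ketogenic arrays 1, 2 and 3, and Dpyd 654, 538 and 457. For Cda, Dpys and Upb1 the lowest ketogenic array was then array 2, with 508 against 648 and 542 for Dpys and 1158 against 1604 and 1303 for Upb1.

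Rescaling the arrays kept Upp2 and Dpyd lower and Cda higher with no overlap of the diets. Over the deposited values and 4 other scalings the log2 difference ran from -3.36 to -2.78 for Upp2, from -1.34 to -0.77 for Dpyd and from 0.61 to 1.26 for Cda. Dpys stayed positive, between 0.05 and 0.63, and its diets did not overlap when scaled to the hybridization controls. Upb1 was 0.17 with that scaling and between -0.40 and -0.19 with the others, and its diets did not overlap with a common trimmed mean. The direction of Upb1 thus depended on the scaling.

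**Figure D3:**
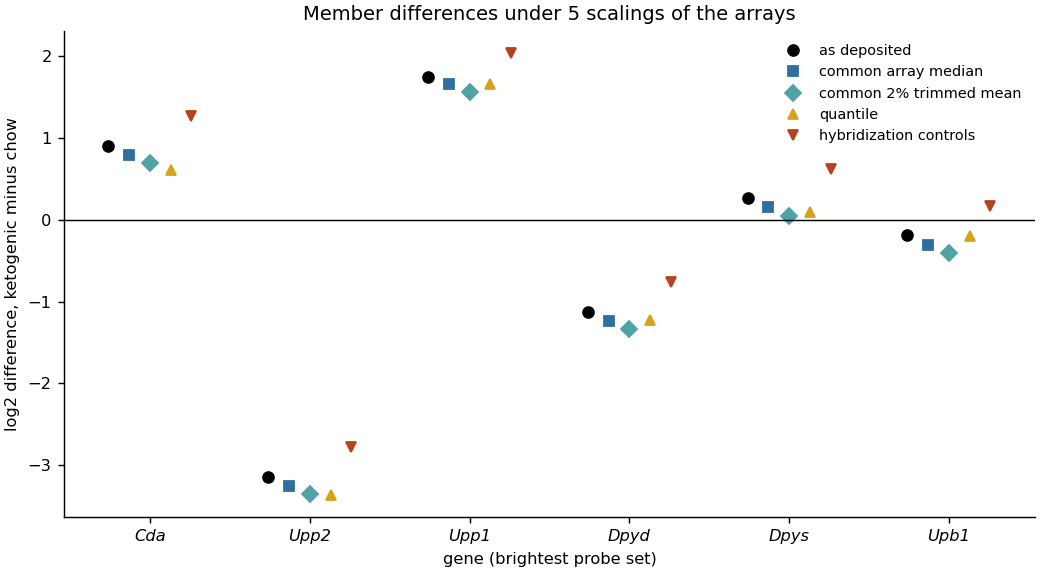
Log2 difference, ketogenic minus chow, of the brightest probe set of each gene with the arrays as deposited and under 4 other scalings. Upp2 and Dpyd lie under 0 and Cda and Upp1 above it in all 5, Dpys lies at 0.05 or above, and Upb1 changes sign when scaled to the hybridization controls.

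In limma's fit over 11866 genes at an adjusted p under 0.05, 1 of the 5 members that passed the filter on low signal was called lower on the ketogenic diet, namely Upp2, against 0.868% of all genes. Upp2 was not called without the filter on low signal, nor with a trended robust prior, where Dpyd was called, and over 16 alternatives Upp2 was called in 14 and Dpyd in 7. No member was called higher (0 of 5, and 1 at an unadjusted p under 0.05), against 6.52% of all genes. In the same fit with a row per probe set, 2 of the 9 member probe sets that passed the filter were called lower, both of Upp2, against 0.564% of all probe sets. Among the 5 members, every ketogenic array was below every chow array for Upp2 and Dpyd, against 5.17% of all genes, and above every chow array for Cda, against 24% of all genes. The members were chosen with these values known, so nothing is read from these counts. The smallest log2 change called over all genes was 0.88, a size that the differences of Dpys and Upb1 did not reach. Those of Dpyd (-1.13) and Cda (0.90) exceeded it and were not called either, so size alone does not decide a call.

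Several measures of the arrays differed between the diets beside these results. The hybridization controls, added in a fixed amount, averaged 499.5 ± 18.4 on ketogenic and 641.7 ± 8.53 on chow arrays (SD, n = 3 each; exact permutation p = 0.1, two-sided, the smallest possible), and the 3' to 5' ratio of actin was 1.58 ± 0.082 on ketogenic and 2.08 ± 0.107 on chow arrays, with the same exact p. The background of single arrays was 9.57 ± 2.15 on ketogenic and 12.33 ± 0.84 on chow arrays (SD, n = 3 each), with overlap (exact permutation p = 0.2, two-sided). Over all genes tested the log2 change had a median of 0.23. Of markers of other liver cells, 12 of 14 tested genes of macrophages, 8 of 9 of stellate cells, 3 of 5 of neutrophils, 6 of 8 of proliferating cells and 1 of 9 of endothelial cells rose, and 0 of 4 of lymphocytes and 0 of 3 of cholangiocytes passed the test (limma adjusted p, and 0 of each at an unadjusted p under 0.05). The summed signal of 15 macrophage markers was 5088.5 to 7603.2 on ketogenic and 1493.7 to 1855.1 on chow arrays. Of all genes, 6.52% rose. Camp of neutrophils, Cd3g and Cd3d of T cells and Cftr of cholangiocytes were under the background on all 6 arrays. Krt7 of cholangiocytes was left out by the filter on low signal. It read 8.1, 12.5 and 17.2 on ketogenic and 1.4, 1.3 and 2.5 on chow arrays, without overlap. Ketogenic array 1 and every chow array were under the background for Krt7. Of 7 hepatocyte markers 1 fell, Cps1, and the list's summed signal was 34472.9 to 40324.1 on ketogenic and 43703.1 to 46115.3 on chow arrays. Much of that lower sum came from Cps1 itself, with a mean of 1730 on ketogenic and 5836 on chow arrays. The log2 changes of the other 6 lay between -0.34 and 0.04. The part of these measures in the results for the 6 genes was not tested, and in whole liver fewer cells of a type and less RNA per cell cannot be told apart.

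The enzymes around the breakdown chain were read from the same fit. Of 57 genes tested in 7 related lists, 5 rose (8.77%, against 6.52% of all genes) and 1 fell (1.75%, against 0.868% of all genes) on the ketogenic diet and 51 did not pass, with a median log2 change of 0.36 against 0.23 for all genes. The share that rose was near that of all genes and the fall was a single gene, so the counts are no result about the lists, and the genes are described singly. Of the 5 rises, 2 passed without ketogenic array 1 or 2 or chow array 2, 3 without ketogenic array 3 or chow array 3 and 4 without chow array 1, and 14 of the genes passed with a common array median, 9 higher and 5 lower.

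Downstream of Upb1, Abat fell. It encodes the 4-aminobutyrate aminotransferase that also takes the amino group off beta-alanine. It read 365.2, 376.3 and 206.7 on ketogenic arrays and 942.9, 940.1 and 829.1 on chow arrays, with no overlap and a log2 change of -1.56 ± 0.29 (SE; limma adjusted p = 0.0132, and between 2.43e-05 and 0.0728 over 16 alternatives). The call was lost only without the filter on low signal. It was the only 1 of 8 tested genes of beta-alanine and beta-aminoisobutyrate handling past the threshold. Agxt2, which transaminates beta-aminoisobutyrate, had a log2 change of 0.08, Aldh6a1, the methylmalonate semialdehyde dehydrogenase, one of -0.59 and Hibadh, the 3-hydroxyisobutyrate dehydrogenase, one of -0.45 (limma adjusted p = 0.89, 0.211 and 0.309).

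Upstream of the chain, the nucleotidases strip phosphate from nucleotides and so yield nucleosides. Of 8 tested, 2 rose. Nt5c2, a cytosolic purine nucleotidase, read 86.9, 77.0 and 70.4 on ketogenic and 29.4, 33.6 and 21.6 on chow arrays, a log2 change of 1.49 ± 0.26 (SE; limma adjusted p = 0.0107). Its other 2 kept probe sets had log2 changes of 0.99 and 0.84 and did not pass (limma adjusted p = 0.0969 and 0.208). Nt5dc2, a family member named for its nucleotidase domain, read 89.7, 97.5 and 77.8 on ketogenic and 19.3, 22.7 and 8.6 on chow arrays, a log2 change of 2.50 ± 0.36 (SE; limma adjusted p = 0.00585). Chow array 3 was under the background for Nt5dc2, whose log2 change was 2.39 with the floor at the background. That change was 1.69 with a pseudocount of 16 and 2.07 without chow array 3. The diets did not overlap for either gene. Of 16 alternatives, only the one without the filter on low signal lost these calls (limma adjusted p = 0.0567 for Nt5c2 and 0.0542 for Nt5dc2, the highest of their alternatives). Nt5c3, which acts on pyrimidine monophosphates, had a log2 change of 0.44 (limma adjusted p = 0.372).

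Of 3 tested nucleoside transporters, Slc29a3, an equilibrative transporter of lysosomes, rose from low signals. It read 22.8, 28.4 and 28.3 on ketogenic arrays and 16.5, 9.8 and 9.3 on chow arrays, a log2 change of 1.20 ± 0.29 (SE; limma adjusted p = 0.0374). Chow arrays 2 and 3 were under the background. The call was lost under 8 of 16 alternatives (limma adjusted p up to 0.127), including each fit that left out an array other than chow array 1. Slc29a1, the equilibrative transporter of the plasma membrane, had a log2 change of -0.42 (limma adjusted p = 0.346).

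In pyrimidine salvage and deoxynucleotide handling, 1 of 13 tested genes rose, Samhd1, a deoxynucleotide triphosphohydrolase. It read 75.3, 70.2 and 67.9 on ketogenic and 45.5, 32.4 and 30.2 on chow arrays, a log2 change of 1.0 ± 0.25 (SE; limma adjusted p = 0.0431). That call was lost under 8 of 16 alternatives, including each fit that left out an array other than chow array 1, and one that averaged the probe sets of each gene (limma adjusted p = 0.309, the highest of its alternatives). None of its other 3 kept probe sets passed, with log2 changes between 0.09 and 1.02. Cmpk2 of the same list did not pass on its brightest probe set, with a log2 change of 1.0 (limma adjusted p = 0.158). The other kept probe set of Cmpk2 had a larger rise, which passed in the fit with a row per probe set. In UDP-sugar synthesis, 1 of 7 rose, Pgm2, which is known mainly for converting ribose 1-phosphate, the product of uridine phosphorylase, to ribose 5-phosphate rather than for making UDP-sugars. It read 31.6, 40.5 and 28.1 on ketogenic and 12.1, 12.9 and 18.1 on chow arrays, a log2 change of 1.22 ± 0.27 (SE; limma adjusted p = 0.0262), and the call was lost under 7 of 16 alternatives (limma adjusted p up to 0.0964), including the fits that left out ketogenic array 1 or 2 or chow array 1 or 2.

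De novo pyrimidine synthesis, which builds uridine monophosphate from glutamine and aspartate, had no gene past the threshold in limma (0 of 8, and 2 higher at an unadjusted p under 0.05). The log2 changes of all 8 were above 0, and their median was 0.49. Cad, which catalyses the first steps, had a log2 change of 0.47, Dhodh one of 0.07 and Umps, which makes the monophosphate, one of 0.16. Nme2, a nucleoside diphosphate kinase and the brightest member, had one of 0.14 (limma adjusted p = 0.762). With a common 2% trimmed mean the change of Nme2 was -0.08 and the median of all genes 0.02.

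Purine breakdown, the matching route for the other bases, also had no gene past the threshold (0 of 10 in limma, and 2 higher and 1 lower at an unadjusted p under 0.05). Uox, the urate oxidase and its brightest member, read 3552.6, 3500.2 and 2321.5 on ketogenic and 5634.9, 4709.5 and 4422.9 on chow arrays, a log2 change of -0.67 ± 0.26 (SE; limma adjusted p = 0.161). It passed under 4 of 16 alternatives. Xdh, the xanthine dehydrogenase that makes urate, had a log2 change of 0.75 (limma adjusted p = 0.111). Pnp, the purine counterpart of the uridine phosphorylases, had one of -0.05 (limma adjusted p = 0.91).

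**Figure D4:**
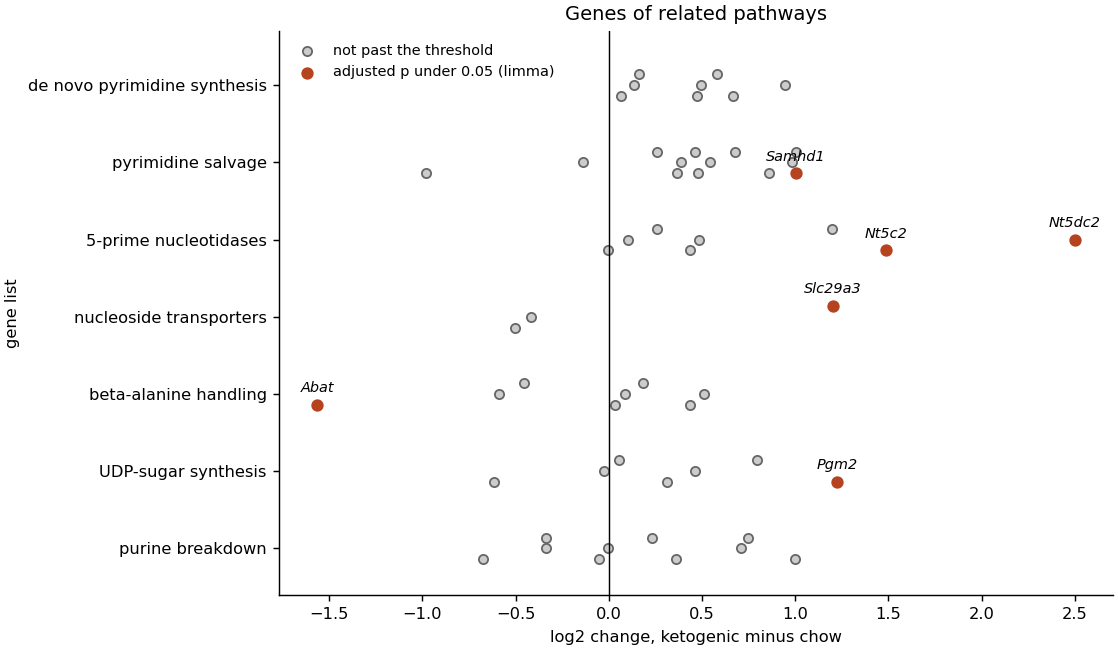
Log2 change, ketogenic minus chow, of 57 genes in 7 related lists, one row per list, with points set apart vertically to limit overlap. Red points passed an adjusted p under 0.05 in limma and are named, grey points did not. Abat lies alone on the left at -1.56, and Nt5dc2 lies farthest right at 2.50.

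The genes whose pattern over the 6 arrays was most like that of Upp2 were found by the root mean square difference of log2 signals, each gene centred on its own mean. They were Cyp2u1, a fatty acid hydroxylase of the cytochrome P450 family, at 0.55, Hydin, which is known for motile cilia, at 0.59 and Hal, the histidine ammonia-lyase, at 0.62. Hal read 305.7, 187.7 and 105.0 on ketogenic and 883.2, 1005.9 and 784.7 on chow arrays, so its ketogenic arrays had the same order as those of Upp2. Cyp2u1 read 25.3, 14.7 and 2.6 on ketogenic and 70.9, 39.3 and 49.4 on chow arrays, again in that order, with ketogenic array 3 under the background. Hydin read 7.9, 5.1 and 3.9 on ketogenic and 42.6, 32.0 and 37.1 on chow arrays, so all 3 ketogenic signals were under the background and its distance rests in part on signals that were not measured. Nearest to Upp1 were Prom1 at 0.31, Tshz2 at 0.46 and Abi2 at 0.48. Like Upp1, all 3 were under the background on chow array 2, so this likeness rests in part on signals that were not measured. The likeness covers 6 arrays of 2 diets and is a description.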

How the data were processed

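Liver RNA of mice on the ketogenic diet (3 arrays) and on chow (3 arrays) was analysed. The authors deposited 1 linear intensity for each probe set and array. The submitters' processing notes name GCOS and MAS5, and no version, setting or scaling target is stated there. The number of arrays limits the precision.

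From these values, signals were raised to 1.1 (the 10th percentile), put on the log2 scale as deposited, and kept where the mean log2 signal reached the median (signal 10.2). This left 22515 probe sets and 11866 genes, each gene by its brightest probe set. limma 3.58.1 in R 4.3.3 (lmFit, eBayes; two-sided; Benjamini-Hochberg over all genes; 0.05) gave the calls. The fit was also run on simulated data with normal errors and variances drawn from its own prior. That run cannot show how well these assumptions suit the arrays. SE of members is from the arrays of each diet, that of other genes is limma's moderated one. Array measures used an exact permutation test. Members and lists were chosen with earlier results of these data known. Named from each related list were up to 4 genes past the threshold, or the brightest member where none passed; other genes named beside them were added after their values were seen. Symbols came from the platform annotation. Other scalings, floors, filters, probe set rules, a trended prior and leaving out each array were tried.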

Additional observations from a re-analysis of the deposited data

How the results depend on the processing

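Upp2, Dpyd and Cda kept their direction under every alternative run for them (13, 13 and 12), between -3.92 and -2.45, between -1.34 and -0.77 and between 0.60 and 1.26 on the log2 scale. Scaled to the hybridization controls, Dpys moved to 0.63 and Upb1 to 0.17, the sole alternative of 12 in which Upb1 was positive. The members were chosen with the contrast known, so their calls under the alternatives describe the processing and are no test of them. In the fit over all genes, Cda was called under 3 of 16 alternatives. Members called lower numbered 2 with a common median, trimmed mean, quantile normalization, a background floor and a pseudocount of 16, 1 to 2 when an array was left out (2 without chow array 3), and 0 without the filter (2 at an unadjusted p under 0.05). Members called higher numbered 1 with hybridization control scaling, the pseudocount and the trended prior.

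Related genes changed numbered 14 with a common median (9 higher, 5 lower), 12 with a trimmed mean (6 lower), 28 with hybridization controls (27 higher), 11 with a background floor (9 and 2), 12 with the pseudocount (9 and 3), 12 with the trended prior (9 and 3) and 0 in limma without the filter (0 and 0, with 12 and 5 at an unadjusted p under 0.05), and 4 were lower with quantile normalization. Leaving out 1 array gave 3 to 5 changed and 2 to 4 higher. All genes changed numbered 3913, 1425, 1610, 256 and 1438 with hybridization controls, background floor, pseudocount, no filter and trended prior, and 522 to 903 with 1 array left out. Rescaling shifted the median log2 change of all genes (0.23) to between -0.01 and 0.60. The causes were not tested. No paired analysis was possible because the array numbers follow deposition order and pair no samples. Signal under the background limits what can be said of Upp1.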
